A study of Homo sapiens with 9 samples.

Results

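Genes that left the parental T-REx line by a similar amount in both transgenic lines, TC4-2A and TL4-2A, are described here. The log2 fold change of the average of TC4-2A and TL4-2A cells against T-REx cells was taken from a single fit of all 9 libraries, and a gene was called when its adjusted p from edgeR was under 0.05. A called gene was counted as shared in a similar amount when it was also called in each line alone, in the same direction, and the smaller of the line changes was at least 2/3 of the larger. Of 60648 genes counted, 19473 were tested, 7736 (39.7%) were called in the average and 1777 were shared in a similar amount. These 1777 genes are the members, 851 of them higher (4.37% of the genes tested) and 926 lower (4.76%).

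T-REx, TC4-2A and TL4-2A are lines derived from HEK293, a human embryonic kidney line, and each gave 3 libraries after 96 h with doxycycline (Dox). T-REx cells carry no insertion. TC4-2A cells make a circular SMN1/2 RNA (exons 2A and 2B with exons 3 and 4) and TL4-2A cells make its linear counterpart. Both RNAs are under a Dox-inducible promoter. TC4-2A cells also make the linear RNA, as a precursor of the circle, so it is present in both derived lines. Both also make a minor linear form without exon 3, at a slightly higher level in TC4-2A cells. All 3 lines received Dox, and no line with an empty insertion was compared, so the insertion, the history of each stable line and any effect common to both RNAs cannot be told apart in the average. The sources used here do not say whether TC4-2A and TL4-2A are single clones, which of zeocin, blasticidin and hygromycin each was kept in, or whether replicate libraries stem from separate cultures. The p-values therefore rest on the spread of these libraries, which may be technical. Sequencing gave 16561680 to 21491977 counts a library. All 10 HEK293 markers (kidney and neural factors, keratins and neurofilaments) stood at 1 CPM (counts relative to library size, scaled by TMM) or more in every line, with summed levels of 1207 to 1253 CPM for T-REx, 940.3 to 979 for TC4-2A and 981 to 997 for TL4-2A. Of 15 markers of blood, vessel, connective tissue, liver and glial cells, 2 reached 1 CPM in any line (COL1A1 and MBP), and their sum was 27.4 to 40.03 CPM.

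Immediate early genes are transcription factors switched on within minutes of a growth signal through the ERK kinases, and feedback genes such as the Sprouty and DUSP families restrain the same kinases. Ribosome biogenesis factors assemble ribosomes in the nucleolus and are made in step with growth. HEK293 cells express a mixed set of epithelial, neuronal and mesenchymal genes, including keratins, neurofilaments, collagens and HOX genes.

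The plot of the line changes shows the members along the diagonal. Most changes were small. The 851 higher members had a median rise of 1.18-fold, with quartiles of 1.12 and 1.32-fold, and 37 rose by more than 2-fold. The 926 lower members had a median fall of 1.23-fold, with quartiles of 1.14 and 1.46-fold, and 105 fell by more than 2-fold. Large falls therefore outnumbered large rises, as they did among all 418 genes (2.15% of those tested) called beyond 2-fold in the average, of which 108 were higher and 310 lower. Beyond 4-fold stood 5 higher and 32 lower members. The rule keeps the lines close to each other, so the direct comparison is given as a description only. The median absolute log2 difference between the lines was 0.05 over the members and 0.18 over all genes called in the average, and 82 members (4.61%) were called between the lines, against 50.7% of all genes called in the average. For 1294 members the 95% interval of the line difference lay within a factor of 1.2. The other genes called in the average were 1449 that moved the same way by unequal amounts, 4189 called in 1 line alone, 148 called in opposite directions and 173 called in neither line alone.

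**Figure D1:**
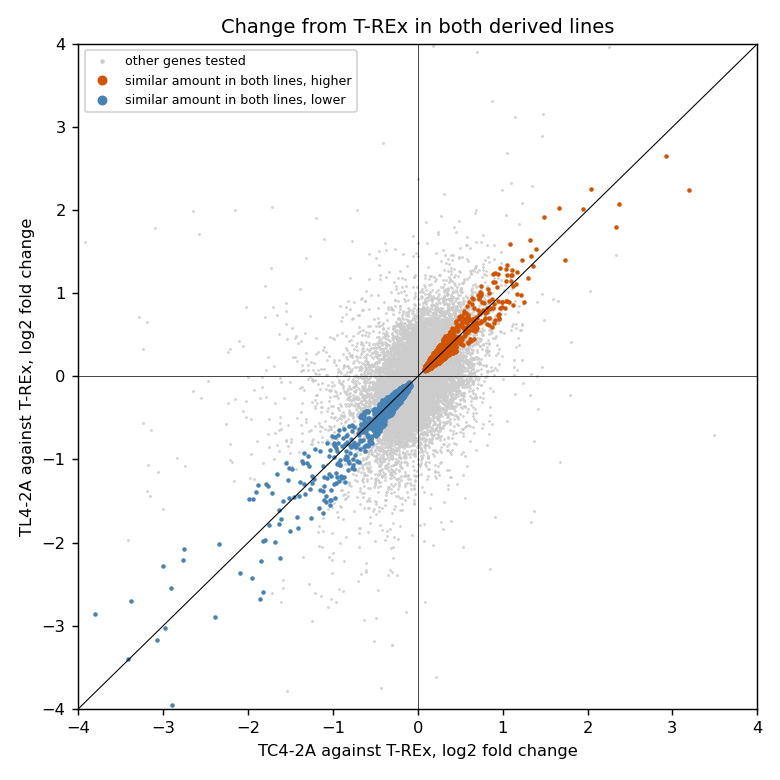
Each point is 1 of the genes tested, with the log2 fold change of TC4-2A against T-REx cells on the x axis and of TL4-2A against T-REx cells on the y axis, both from the edgeR fit. Members (orange higher, blue lower) lie in 2 wedges about the diagonal, which is their rule and not a result, and 53 genes, 15 of them members, lie outside the axes at 4.

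In 1644 members all 6 derived libraries lay on 1 side of the 3 T-REx libraries (92.5%), and in 4474 (23%) of all genes tested. The rule itself favours such separation. Both line comparisons use the same 3 T-REx libraries, so a chance deviation of T-REx moves both lines together. Without T-REx replicate 1, 2 or 3, 1722, 1688 and 1701 of the 1777 members were still called in the average, and 1500, 1390 and 1382 still met the whole rule. At the edge of the rule, SMAP2 and SUZ12 stood just inside with ratios of the smaller to the larger change of 0.6669, and WWC2 and PTPN11 just outside with 0.6665.

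Among the protein-coding members with a mean of at least 1 log2 CPM and no overlap between derived and parental libraries, the 12 with the largest fall and the 12 with the largest rise are described first. In the 12 that fell, 4 genes were almost without reads in both derived lines. PYCR1, the mitochondrial enzyme of the last step of proline synthesis (chromosome 17 of GRCh38, 81932384 to 81942412), had 16.4, 17.8 and 13.9 CPM in the T-REx libraries, 0 in all 3 TC4-2A libraries and 0, 0 and 0.06095 CPM in the TL4-2A libraries. The 959 PYCR1 counts of T-REx cells stood against 0 and 1 in the derived lines, a level at least 320-fold lower in TC4-2A (a floor of 3 counts over the group) and 788-fold lower in TL4-2A cells (95% interval 149.6 to 32915, from exact Poisson limits on the count of the derived line, which cover counting error only). SALL3, a zinc finger transcription factor of development (chromosome 18, 78979818 to 79002677), had 8.38, 8.34 and 7.25 CPM in T-REx and no count in any derived library, at least 160-fold and 139-fold lower. In bulk RNA, fewer cells that express a gene and less RNA per cell cannot be told apart.

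MFAP2, a glycoprotein of elastic microfibrils (chromosome 1, 16974502 to 16980632), had 8.48, 7.14 and 8.97 CPM in the T-REx libraries. Its 486 counts there compare with 0 in TC4-2A (at least 164-fold lower) and 3 in TL4-2A cells, 1 in each library (141-fold lower, 95% interval 48.6 to 689). ERVMER34-1, which encodes a retroviral envelope protein kept in the human genome (chromosome 4, 52722618 to 52751586), had 8.48, 7.04 and 5.999 CPM in T-REx cells, no count in TC4-2A cells (at least 143-fold lower) and 2 counts in TL4-2A cells (189-fold lower, 95% interval 51.7 to 1541). Fitted fold changes of these 4 genes depend on the prior count of the model and are not given.

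TENM1 and NALCN, a teneurin of neuronal contacts and a sodium leak channel, fell less far and kept some reads in every library. TENM1 (chromosome X, 124375903 to 125204312) had 18.1, 15.1 and 16.3 CPM in T-REx libraries, against 0.849, 0.5699 and 0.484 (TC4-2A) and 0.484, 0.695 and 0.6095 (TL4-2A). The ratio was 26.0-fold (95% counting interval 18.9 to 36.7) for TC4-2A and 27.7-fold (19.5 to 40.7) for TL4-2A, and the log2 difference between the lines was 0.084 (95% interval -0.61 to 0.78). NALCN (chromosome 13, 101053776 to 101416508) had 23.7, 22.99 and 22.8 CPM in T-REx libraries, against 0.699, 0.855 and 0.537 (TC4-2A) and 0.908, 1.497 and 1.71 (TL4-2A), 33.2-fold and 16.9-fold lower. Here the lines did differ, with a log2 difference of -0.96 (adjusted p = 0.00436 from edgeR).

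The stretches just upstream of these near-silent genes are shown because their CG content, where promoter methylation acts, differed widely between them. RefSeq windows (GRCh38.p14) were matched by symbol for 9 of the 12 genes chosen above for the largest fall, with none for PYCR1. Each stretch holds the 120 bases that end at the RefSeq start, 5′ to 3′ on the strand of the gene, with each CG in capitals.
SALL3 (chr18:78979698-78979817, + strand): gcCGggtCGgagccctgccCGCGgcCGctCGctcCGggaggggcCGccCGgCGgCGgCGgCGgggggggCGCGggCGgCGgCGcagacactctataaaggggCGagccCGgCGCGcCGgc
MFAP2 (chr1:16981584-16981703, - strand): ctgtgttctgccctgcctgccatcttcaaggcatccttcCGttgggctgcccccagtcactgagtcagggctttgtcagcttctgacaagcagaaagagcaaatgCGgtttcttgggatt
TENM1 (chrX:125204313-125204432, - strand): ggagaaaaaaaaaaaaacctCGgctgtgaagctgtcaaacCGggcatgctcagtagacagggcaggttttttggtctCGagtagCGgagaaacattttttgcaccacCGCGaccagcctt
NALCN (chr13:101416509-101416628, - strand): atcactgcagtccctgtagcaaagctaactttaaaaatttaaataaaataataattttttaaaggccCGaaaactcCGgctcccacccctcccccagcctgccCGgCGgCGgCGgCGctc
Over the 250 bases upstream, CG occurred 49 times in SALL3, 16 times in NALCN, 19 times in ERVMER34-1, 8 times in TENM1 and 4 times in MFAP2. The median was 19 over the 9 genes matched, 21 over the 12255 genes tested that were matched and 11 over all 27195 promoters. The RefSeq start of MFAP2 lies upstream of the Gencode end of the gene given above, so its window belongs to another annotated start. DNA methylation was not measured.

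The other 6 of the 12 genes chosen above for the largest fall encode secreted or matrix proteins. HMCN1, the matrix protein hemicentin, had 38.9, 38.2 and 36.2 CPM in T-REx libraries, against 10.04, 8.12 and 10.6 (TC4-2A) and 14.2, 12.8 and 13.9 (TL4-2A), and its average log2 fold change was -1.73 (SE 0.058, adjusted p = 5.53e-24 from edgeR). ENPP2, autotaxin, the enzyme that makes lysophosphatidic acid, fell from 29.8, 29.8 and 29.5 CPM to 9.39, 9.403 and 10.4 (TC4-2A) and 9.14, 8.397 and 9.63 (TL4-2A), a log2 change of -1.66 (SE 0.06, adjusted p = 6.06e-23 from edgeR). No derived library of either gene came near a T-REx library. COL12A1, a collagen on the surface of fibrils, fell by 1.94 and 1.48 on the log2 scale in TC4-2A and TL4-2A cells. RSPO4, a secreted amplifier of Wnt signals, had a mean of 5.54 ± 0.537 CPM in T-REx cells, against 0.733 ± 0.123 (TC4-2A) and 0.949 ± 0.09503 (TL4-2A) (SD, n = 3). ADAMTS18, a secreted metalloprotease, and LIPG, endothelial lipase, averaged -2.19 and -1.84 on the log2 scale (SE 0.18 and 0.14). CCN3 and ANXA1, also members and named after their values were seen, fell by 1.62 and 1.59. ANXA1 fell more in TC4-2A (-1.88) than in TL4-2A cells (-1.30), a log2 difference of -0.58 (adjusted p = 0.000512 from edgeR). For CCN3 the difference was -0.02.

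The 12 genes chosen in the same way for the largest rise changed less. FAM184B, of unknown function, led with 3.55, 3.61 and 3.65 CPM in T-REx libraries, against 9.39, 9.59 and 9.402 (TC4-2A) and 10.4, 10.9 and 10.1 (TL4-2A), an average log2 change of 1.46 (SE 0.10, adjusted p = 1.58e-14 from edgeR). LCP1, the actin-bundling protein L-plastin of chromosome 13, rose from 60.9, 67.1 and 62.3 CPM to 105, 105 and 109.6 (TC4-2A) and 130.5, 134 and 140.2 (TL4-2A). The groups of LCP1 did not overlap, and TL4-2A cells stood above TC4-2A cells (TC4-2A minus TL4-2A -0.34 in log2 units, edgeR adjusted p = 5.94e-09). GNAO1, the alpha subunit of the neuronal G protein Go, rose from 13.8, 14.04 and 15.3 CPM to 20.1, 21.5 and 22.8 (TC4-2A) and 24.5, 26.1 and 26.9 (TL4-2A).

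Of the other 9, TNK1, a cytoplasmic tyrosine kinase, rose by 1.12 on the log2 scale, CARD9, an adaptor of innate immunity, by 1.02, and the orphan receptor GPR85 by 0.92. HOXC5, RHBDL1 (a rhomboid family protein) and FAM149A rose by 0.94, 0.87 and 0.85, and CD226, a receptor of lymphocytes, by 0.74 from 1.42 ± 0.174 CPM. ENSG00000258881 and ENSG00000267127 rose by 0.83 and 0.72. Both overlap named genes (ATP6V1B1 and RBFA among them) on their strand or the other, so that reads could have been divided between them. The dot plot of the largest changes gives every library of these 24 genes.

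**Figure D2:**
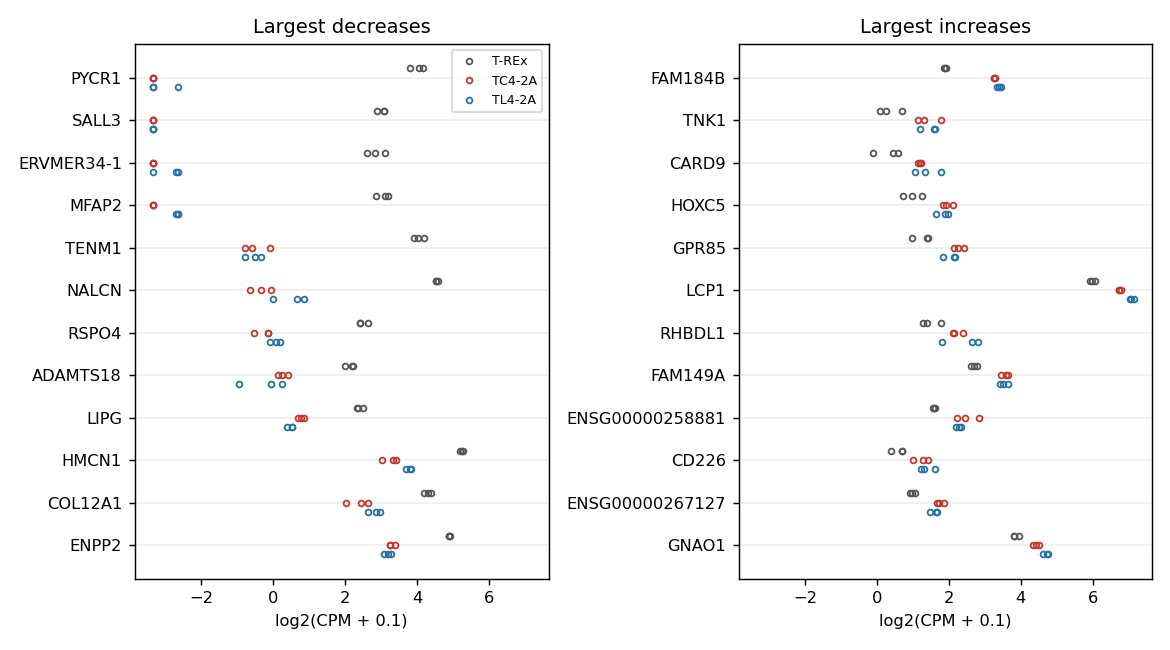
Level in each library, as log2(CPM + 0.1), of the 12 protein-coding members with the largest decrease (left) and increase (right) under 2 conditions. These are a mean of at least 1 log2 CPM and no overlap between derived and parental libraries. T-REx is grey, TC4-2A red and TL4-2A blue. By this choice the 6 derived libraries lie on 1 side of the 3 T-REx libraries in every gene shown, and 4 of the decreases end at or near 0 CPM.

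Among the members with larger changes, the 8 of highest CPM are given for each direction. DDX5, an RNA helicase of transcription and splicing, had 462, 472 and 486 CPM in T-REx libraries, against 631, 629.8 and 655 (TC4-2A) and 629.8, 681 and 640.1 (TL4-2A), an average log2 change of 0.44 (SE 0.026, adjusted p = 2.59e-16 from edgeR). SND1, a nuclease-domain coactivator, rose from 349, 361 and 341 CPM to 496, 494 and 480.5 (TC4-2A) and 458, 463 and 463 (TL4-2A). CAD, the enzyme that begins pyrimidine synthesis, rose by 0.36, SRRT, a partner of the nuclear cap-binding complex, by 0.40, and PPRC1, a coactivator of mitochondrial genes, by 0.42 (SE 0.025, 0.025 and 0.028). TFDP1, the partner of E2F factors, and PROSER1 rose by 0.35 and 0.35, and CREB3L2, a transcription factor held in the ER membrane, by 0.45. TFDP1 and PROSER1 lie on chromosome 13, described below with its other genes. SRRT, SND1 and CREB3L2 lie on chromosome 7. All genes tested in their 10 Mb segments had medians of 0.36, 0.32 and 0.34 for TC4-2A, against 0.0003, 0.01 and 0.07 for TL4-2A.

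On the lower side RBBP7, a histone-binding subunit of several chromatin complexes on chromosome X, fell from 446, 456 and 447 CPM to 335, 331 and 336 (TC4-2A) and 309.7, 315 and 308 (TL4-2A) (-0.48 in log2 units, SE 0.022, edgeR adjusted p = 1.09e-19). SMCHD1, a silencing factor of the inactive X chromosome encoded on chromosome 18, fell from 218, 216 and 225 CPM to 164, 168 and 169.8 (TC4-2A) and 177, 179.6 and 185 (TL4-2A). The decrease was -0.47 for AHNAK, a giant scaffold protein, -0.35 for the sialomucin CD164, -0.39 for ARHGAP5 and -0.32 for BRI3BP on the same scale. NEFL, the light neurofilament chain, and TAGLN2, an actin-binding protein, fell further, by 0.78 and 0.65. The lines differed in 5 of these 8 genes, by 0.15 or less on the log2 scale.

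Long noncoding RNA genes were chosen under the same conditions. Among them LINC01687 (chromosome 21) rose most, from 0.583, 1.205 and 0.783 CPM in T-REx to 7.94, 8.22 and 7.898 (TC4-2A) and 4.96, 3.21 and 4.39 (TL4-2A). The rise in TC4-2A exceeded that in TL4-2A cells by 0.95 in log2 units (adjusted p = 9.69e-07 from edgeR). ENSG00000287842 and SOX1-OT, both on chromosome 13, rose by 1.22 and 0.94, and FLJ12825, beside the HOXC cluster, by 0.94. KCNJ2-AS1 fell by 1.22, together with KCNJ2, the inward-rectifier potassium channel it overlaps, which fell from 8.48, 7.83 and 8.82 CPM to 3.55, 4.46 and 3.55 (TC4-2A) and 3.69, 2.83 and 3.17 (TL4-2A). TYMSOS fell by 1.07, beside TYMS, thymidylate synthase, which fell by 0.39. TTC23L-AS1 and ENSG00000266680 fell by 1.10 and 0.90. KCNJ2-AS1 and TYMSOS lie on the strand opposite to KCNJ2 and TYMS, and ENSG00000266680 overlaps PTP4A1. The library kit kept strand, but no source used here gives the strand setting of the counting, so reads of overlapping partners may not have been separated.

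HOX genes, looked at after FLJ12825 and HOXC5 were seen, were mostly higher in the HOXB and HOXC clusters. Of 8 HOXC genes tested 7 were called higher and 0 lower, and of 9 HOXB genes 7 and 0. Over all genes 19.4% were called higher and 20.3% lower. The HOXA genes stood at 4 higher and 3 lower of 11 and the HOXD genes at 5 and 1 of 9, with 0 members among the HOXD genes. Of the HOXA genes 1 was a member, HOXA13, which fell by 0.19. HOXB3 had 82.9 ± 2.94 CPM (SD, n = 3) in T-REx, 104 ± 3.13 for TC4-2A and 116 ± 2.55 for TL4-2A, and the antisense RNA HOXB-AS3 rose from 12.04 ± 0.656 to 23.7 ± 3.19 (TC4-2A) and 21.3 ± 0.862 (TL4-2A) CPM. HOXC9 and HOXC11 rose by 0.41 and 0.55 on the log2 scale. Of the 14 HOXB and HOXC genes called, 7 were members. HOXB3 and HOXB-AS3 overlap on opposite strands, and how their reads were divided is uncertain.

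The 34 gene lists are given by their counts, to be read against 19.4% of all genes tested called higher and 20.3% lower. Apart from the 3 genes of smallest p in each list, list genes are named because they were members or stood apart, after their values were seen. Immediate early and ERK feedback genes had the largest share called lower of the lists with at least 15 genes tested. Of 43 tested, 31 were lower (72.1%), 1 was higher and 11 were not called, and the median average log2 fold change was -0.39, against 0.0007 over all genes. Members numbered 15, all lower. By library the list median, relative to the T-REx mean of each gene, was -0.0052, -0.0031 and -0.0011 for T-REx, -0.30, -0.33 and -0.38 for TC4-2A and -0.42, -0.42 and -0.38 for TL4-2A. In 26 of the 43 genes all 6 derived libraries lay below all 3 T-REx libraries.

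SPRY4, ETV4, ETV5 and DUSP5 had the 4 largest falls among the 15 list members. ETV4 had 16.8, 15.4 and 13.3 CPM in T-REx libraries, against 7.74, 7.93 and 6.34 (TC4-2A) and 5.45, 4.71 and 6.03 (TL4-2A), and ETV5 had 24.9, 24.3 and 25.4 CPM, against 9.79, 12.96 and 10.9 (TC4-2A) and 15.4, 13.3 and 11.2 (TL4-2A). Neither gene overlapped between the parental and the derived libraries, and the average log2 changes were -1.27 and -1.02 (SE 0.09 and 0.072, adjusted p = 4.45e-14 and 3.42e-14 from edgeR). SPRY4, a Sprouty inhibitor of the pathway, fell from 9.25 ± 0.3999 to 3.67 ± 0.332 (TC4-2A) and 3.46 ± 0.224 (TL4-2A) CPM, and the ERK phosphatase DUSP5 from 15.97 ± 1.15 to 8.45 ± 0.215 (TC4-2A) and 8.001 ± 1.002 (TL4-2A) CPM (SD, n = 3). ATF3, a stress-induced factor that is also on the ATF4 list, fell from 41.7 ± 1.52 to 28.3 ± 0.735 (TC4-2A) and 27.6 ± 1.64 (TL4-2A) CPM.

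The other list members were transcription factors, ZFP36 and a Sprouty gene. EGR1 fell by 0.50 on the log2 scale, KLF4 by 0.65, ETV1 by 0.65, FOSL2 by 0.48, KLF10 by 0.41, ZFP36 (which destabilizes mRNAs) by 0.40, FOSL1 by 0.39, JUND by 0.37, SPRY1 by 0.34 and KLF6 by 0.28. DUSP6 fell in both lines but not by a similar amount, with -1.16 for TC4-2A and -0.66 for TL4-2A, and ARC, JUNB and DUSP4 fell more in TL4-2A cells. The 1 gene of the list called higher was SRF, the factor that switches on many of the others, at 0.14 (adjusted p = 0.0045 from edgeR). MYC went apart, with log2 changes of 0.27 (TC4-2A) and -0.38 (TL4-2A). The heat map of the list by library shows these exceptions at its foot.

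**Figure D3:**
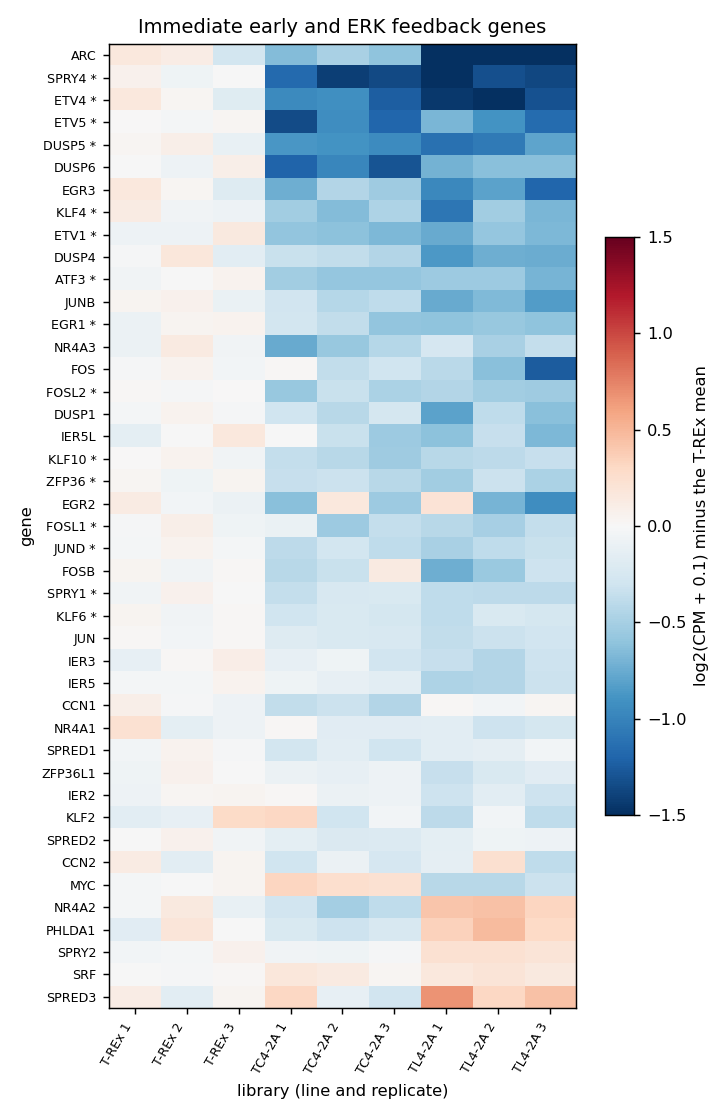
Each row is 1 of the 43 immediate early or ERK feedback genes tested and each column a library, coloured by log2(CPM + 0.1) minus the gene's T-REx mean, and a star marks members. The 6 derived libraries are blue for most genes, with medians between -0.30 and -0.42, and the last rows (MYC, NR4A2, PHLDA1, SPRY2, SRF and SPRED3) hold the exceptions.

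The upstream stretch of EGR1 is shown because it carries the serum response motif by which growth signals switch on this gene. Motifs were searched on both strands of the 250 bases before the start. The CArG box, bound by SRF, was found in EGR1 and in none of the other 9 immediate early members with a RefSeq window. It was found in 1.15% of all promoters, 0.94% of the genes tested and 1.975% of the lower members. The cyclic AMP response element (TGACGTCA) was found in 1 of the 10, JUND, against 1.77% of all promoters, 2.88% of the genes tested and 4.37% of the lower members. Both CArG boxes of EGR1 are in capitals in the 120 bases before its start.
EGR1 (chr5:138465359-138465478, + strand): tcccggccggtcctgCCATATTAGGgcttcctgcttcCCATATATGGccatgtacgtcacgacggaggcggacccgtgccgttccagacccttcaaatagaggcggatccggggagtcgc

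Ribosome biogenesis factors moved the other way. Of 80 tested, 50 were higher (62.5%) and 5 lower, with a median log2 change of 0.12, and 13 were members, all higher. GRWD1, a histone-binding nucleolar protein, had 89.9, 86.9 and 87.96 CPM in T-REx libraries, against 117, 116 and 111 (TC4-2A) and 123, 122 and 126 (TL4-2A) (0.43 in log2 units, SE 0.032, edgeR adjusted p = 1.41e-13). POLR1A, the largest subunit of RNA polymerase I, rose from 224, 220.4 and 229.5 CPM to 270.0, 277 and 267 (TC4-2A) and 318, 294 and 299.6 (TL4-2A), but by unequal amounts in the lines. NOM1 rose by 0.65 (TC4-2A) and 0.22 (TL4-2A). Other members of the list were NOP16 (0.33), UTP14A (0.25), MDN1 (0.24), NOL6 (0.22), POLR1C (0.21), NAT10 (0.18), BOP1 (0.17), MYBBP1A (0.16), LAS1L (0.16), BMS1 (0.15), UTP6 (0.14) and TCOF1 (0.13, all log2 changes of the average).

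Upstream windows were found for 11 of these 13 members, and 3 of them, GRWD1, LAS1L and POLR1C, are shown because they hold an ETS site (CCGGAAGT on either strand, in capitals), in a stretch of 120 bases from the 250 searched. The site was found in 3.65% of all promoters, in 6.67% of the genes tested and in 9.55% of the 618 higher members with a window. The E-box CACGTG, which MYC and related factors bind, was found in another 3 of the 11 (MDN1, NAT10 and UTP14A), against 6.50% of all promoters, 8.70% of the genes tested, 10.84% of the higher members and 8.7% of the lower members. It was also found in 2 of the 10 immediate early members with a window, KLF4 and KLF6, which fell. These matches are descriptions of sequence and not binding sites.
GRWD1 (chr19:48445863-48445982, + strand): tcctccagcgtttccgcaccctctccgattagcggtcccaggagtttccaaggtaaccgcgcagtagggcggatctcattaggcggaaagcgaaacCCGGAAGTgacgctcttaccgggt
LAS1L (chrX:65534831-65534950, - strand): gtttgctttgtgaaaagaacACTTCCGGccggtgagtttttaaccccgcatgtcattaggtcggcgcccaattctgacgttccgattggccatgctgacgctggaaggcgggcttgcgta
POLR1C (chr6:43516941-43517060, + strand): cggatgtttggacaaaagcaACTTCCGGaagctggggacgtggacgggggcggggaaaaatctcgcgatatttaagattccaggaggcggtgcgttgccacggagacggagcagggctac

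Lists of RNA processing and of heat shock chaperones also had more genes higher than lower. Of 57 SR and hnRNP splicing regulators tested 31 were higher and 8 lower, and of 52 DEAD-box and DEAH-box helicases 24 and 7. The 3 splicing regulators with the smallest p, HNRNPA3, SRRM2 and LUC7L, rose in both lines but by 0.52, 0.38 and 0.48 in TL4-2A against 0.11, 0.18 and 0.24 in TC4-2A cells, so none was a member. Members included CLK2, a kinase of SR proteins (0.28), SON (0.17), HNRNPM (0.18) and HNRNPL (0.16), and among helicases DHX35 (0.33), DHX30 (0.25) and DDX51 (0.24). DDX56 rose by 0.30 and DHX32 fell by 0.40, both unequally. Heat shock chaperones stood at 17 higher and 5 lower of 42, with DNAJA1 (0.22) and HSPA8 (0.20) as members and HSPD1 and DNAJB6 (0.34 and 0.33) raised unequally. The SMN complex and Sm proteins, which load snRNPs, stood at 9 higher and 1 lower of 22, with GEMIN5 and WDR77 at 0.19 and 0.30. For these 4 lists the median log2 changes were 0.08, 0.07, 0.06 and 0.05.

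SMN1 and SMN2 themselves differed in this respect. SMN2 was a member, with 17.3, 16.1 and 15.9 CPM in T-REx libraries, against 19.6, 19.6 and 20.5 (TC4-2A) and 19.01, 20.2 and 20.1 (TL4-2A), whereas SMN1 had 36.3, 39.1 and 39.8 CPM, against 75.4, 71.9 and 77.05 (TC4-2A) and 42.6, 41.3 and 44.1 (TL4-2A), and rose mainly in TC4-2A cells. The log2 difference between the lines was 0.0091 for SMN2 (95% interval -0.12 to 0.14) and 0.81 for SMN1. The genes are near-identical and the inserted exons come from them, and how reads were divided between them is uncertain. GEMIN4 was the other member of the SMN complex, at 0.19.

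**Figure D4:**
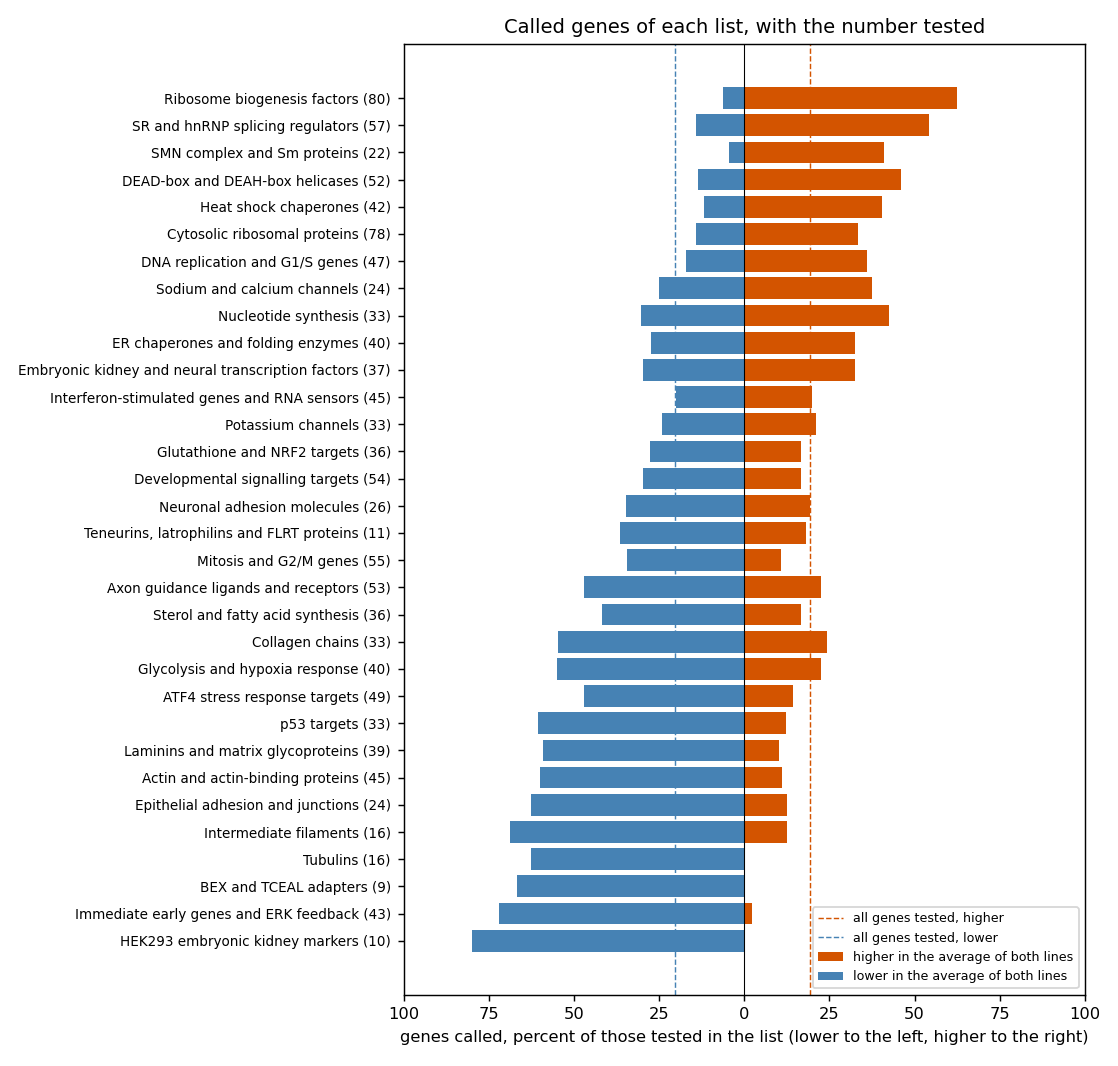
Share of the genes tested in each list that were called higher (orange, right) or lower (blue, left) in the average of both lines, in percent, with the number tested in brackets and the shares over all genes as dashed lines. HEK293 markers, immediate early genes, BEX and TCEAL adapters and tubulins stand at the lower end and ribosome biogenesis factors at the upper end.

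Cytoskeletal and surface genes leaned to the lower side, as the bar chart of called shares by list shows. Of 16 tubulins 10 were lower and 0 higher, of 16 intermediate filaments 11 and 2, of 45 actin and actin-binding genes 27 and 5, and of 24 epithelial adhesion genes 15 and 3. TUBB2B, a beta tubulin of neurons, had 59.5, 60.9 and 57.8 CPM in T-REx libraries, against 34.7, 35.5 and 34.3 (TC4-2A) and 28.2, 27.9 and 27.00 (TL4-2A), and TUBA1A fell by 0.49. TUBA1B, on the same list, fell by 0.06 (not called) and 0.29. FLNC, filamin C, fell furthest among actin-binding genes, from 4.08, 4.17 and 3.91 CPM to 0.4496, 0.237 and 0.484 (TC4-2A) and 0.908, 0.749 and 0.183 (TL4-2A). TMSB4X, thymosin beta 4, fell by 0.99 and MYL12A, a myosin light chain, by 0.55, and BASP1 fell mainly in TC4-2A cells (-0.78 and -0.15).

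Among epithelial genes CDH1, E-cadherin, had 20.7, 22.8 and 21.3 CPM in T-REx libraries, against 9.69, 9.21 and 10.4 (TC4-2A) and 9.26, 7.43 and 8.53 (TL4-2A), an average log2 change of -1.26 (SE 0.07, adjusted p = 4.58e-17 from edgeR). CLDN1, a tight junction claudin, fell by 0.79, EPCAM by 0.57 and F11R by 0.56. CDH3, P-cadherin, fell mainly in TL4-2A cells (-0.28 and -1.59). Keratins KRT8 and KRT19 fell in both lines but more in TL4-2A cells, whereas KRT18 (-0.24) and the intermediate filament gene SYNM (-0.58) were members. The tight junction scaffold TJP1 rose, by 0.12. The HEK293 markers, which include NEFL, KRT8 and KRT18, stood at 8 lower and 0 higher of 10, with VIM at -0.23.

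Matrix genes had more genes lower than higher. Collagen chains stood at 18 lower and 8 higher of 33 (54.5% and 24.2%), against 20.3% and 19.4% of all genes tested. Their median was -0.28 for TC4-2A and -0.04 for TL4-2A. Laminins and matrix glycoproteins stood at 23 lower and 4 higher of 39. LAMA3, a laminin of epithelial basement membranes encoded on chromosome 18, had 148, 133 and 134 CPM in T-REx libraries, against 83.1, 84.3 and 89.2 (TC4-2A) and 93.4, 84.6 and 88.6 (TL4-2A). LAMB3, its partner chain, fell by 2.23 and COL6A1 by 0.32, and COL21A1 fell by 0.50. LAMB3 did not meet the conditions set for the 12 genes of largest fall. TNC and SPARC fell unequally, TNC to 10.3 ± 0.534 (TC4-2A) and 14.9 ± 0.961 (TL4-2A) CPM and SPARC to 11.3 ± 1.703 (TC4-2A) and 3.39 ± 0.776 (TL4-2A) CPM from 30.1 ± 1.67 and 23.4 ± 0.633. COL2A1 moved in opposite directions. It fell by 6.11 on the log2 scale in TC4-2A and rose by 1.59 in TL4-2A cells.

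Lists of p53 targets, of glycolysis and hypoxia and of ATF4 targets had more genes lower than higher. Of 33 p53 targets 20 were lower and 4 higher (median -0.17), with the members SFN (-1.91), GADD45B (-0.61) and GADD45A (-0.33). SFN did not meet the conditions of level and overlap set for the 12 genes of largest fall. The 3 p53 targets with the smallest p, BTG2, PMAIP1 and CDKN1A, fell by 0.54, 0.37 and 0.53, in each case more in TL4-2A cells. Of 40 glycolysis and hypoxia genes 22 were lower and 9 higher. STC1 (-1.54), EPAS1 (-0.81), the mitophagy receptor BNIP3 (-0.46) and HIF1A (-0.31) were members, as was PGK1 (-0.29), while NDRG1 and BNIP3L (-1.10 and -0.54) fell unequally. Of 49 ATF4 targets 23 were lower and 7 higher, with PYCR1, ATF3, DDIT3 (-0.35) and TRIB3 (-0.25) as members, and SLC7A5 went apart (0.20 and -1.15). The ATF4 list had a median of 0.01 for TC4-2A and -0.20 for TL4-2A, so its lower median was that of TL4-2A cells.

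Lists of neurons, development and the remaining metabolism had medians of the average within 0.13 of 0 except for BEX and TCEAL adapters (-0.28). Over all genes tested 20.3% were lower and 19.4% higher, and potassium channels stood near these shares (24.2% and 21.2%). Others did not. More genes were lower in axon guidance (47.2% and 22.6%), sterol and fatty acid synthesis (41.7% and 16.7%) and mitosis (34.5% and 10.9%). More were higher in replication (17.0% and 36.2%) and cytosolic ribosomal proteins (14.1% and 33.3%). Axon guidance genes stood at 25 lower and 12 higher of 53, neuronal adhesion molecules at 9 and 5 of 26, potassium channels at 8 and 7 of 33, sodium and calcium channels at 6 and 9 of 24, developmental signalling targets at 16 and 9 of 54, and embryonic transcription factors at 11 and 12 of 37. SEMA6A, a semaphorin, fell by 0.37 and ALCAM by 0.50 as members, EPHA2 and PLXNB2 fell by 0.78 and 0.39 unequally, and L1CAM, a neural adhesion molecule, fell by 1.06. HHIP and CACNA1D rose by 0.98 and 0.83, also unequally, as did LRRTM4 (0.67).

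Sterol and fatty acid genes stood at 15 lower and 6 higher of 36, with FASN, fatty acid synthase, a member at 0.29, and HMGCS1 and INSIG1 lower by 0.36 and 0.37. Nucleotide synthesis stood at 10 and 14 of 33, ER chaperones at 11 and 13 of 40 (PDIA4 a member at 0.25, list medians -0.05 for TC4-2A and 0.16 for TL4-2A), interferon-stimulated genes at 9 and 9 of 45 (SAMD9 a member at -1.19), and glutathione and NRF2 targets at 10 and 6 of 36. The interferon list, with 20% called each way, stood at the shares over all genes tested (20.3% lower and 19.4% higher). Cytosolic ribosomal proteins stood at 11 and 26 of 78, replication genes at 8 and 17 of 47 (MCM5 a member at 0.29) and mitosis genes at 19 and 6 of 55. The TC4-2A and TL4-2A medians had opposite signs in several of these lists. They were -0.13 and 0.03 for sterol genes, 0.04 and -0.10 for glutathione and NRF2 targets, and 0.07 and -0.02 for cytosolic ribosomal proteins. The counts of these lists are therefore not a change common to both lines. Of mitosis genes NDC80 (-0.53) on chromosome 18 and CKAP2 (0.31) on chromosome 13 were members. BEX and TCEAL adapters stood at 6 lower and 0 higher of 9, with a median of -0.62 for TC4-2A and -0.09 for TL4-2A and 1 member. Of other lists, teneurins and partners stood at 4 and 2 of 11 (TENM3 rose by 0.18 and ADGRL2 fell by 0.17), and unclustered protocadherins at 2 and 2 of 7. Of the markers of other cell types 3 were tested, and 1, COL1A1, was lower.

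Position was not used by the rule, and on some chromosomes higher and lower members were unevenly represented. Chromosome 22 held 41 higher and 6 lower members of 457 genes tested, and chromosome 6 held 33 higher and 87 lower of 1043. On chromosome 13, 86 of 387 genes tested were higher members (22.2%, against 4.37% of all genes) and 9 were lower members, and the median log2 change over all 387 genes was 0.18 (TC4-2A) and 0.18 (TL4-2A). These 86 genes are 10.1% of the higher members and rose by a median of 1.24-fold. Of the 8 segments of 10 Mb with at least 15 genes tested, 6 had a median beyond 0.15 in both lines, from 0.19 to 0.28 for TC4-2A and from 0.19 to 0.37 for TL4-2A. These lay from 30 to 60 Mb, from 70 to 80 Mb, from 90 to 100 Mb and from 110 to 120 Mb. The segment from 20 to 30 Mb had medians of -0.01 and -0.12. NALCN, near-silent in both lines, lies in the segment from 100 to 110 Mb, which had medians of 0.07 and 0.17.

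Chromosome 18 went the other way near its start. From 0 to 10 Mb, 31 of 61 genes were called lower and 1 higher, 21 were members, and the medians were -0.24 in both lines. TYMS, TYMSOS, SMCHD1, NDC80 and MYL12A belong to that segment. On the whole chromosome 46 of 322 genes were lower members (14.3%, against 4.76% of all genes). Its last segment, from 70 to 80 Mb, had medians of 0.48 (TC4-2A) and 0.03 (TL4-2A), and SALL3, near-silent in both lines, lies within it. Segments with medians below -0.15 in both lines were also found on chromosome 14 from 30 to 40 Mb (-0.17 and -0.20, 14 members, ARHGAP5 among them) and on chromosome X from 10 to 20 Mb (-0.15 and -0.15, RBBP7 among them) and from 30 to 40 Mb (-0.29 and -0.31). The lines were unequal in the other such segments, on chromosome 2 from 10 to 20 Mb (-0.16 and -0.57) and on chromosome X from 110 to 120 Mb (-0.15 and -0.24).

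Over the genome 32 of 292 segments had an average median beyond 0.15 with both lines on the same side, 19 higher and 13 lower. In 11 of the 32 the line medians were within the ratio of 2/3, and these 11 hold 141 members, 7.93% of all. Most members lie elsewhere, as do most genes tested. Within the 11, members ran from 1 of 22 genes tested (chromosome 4, 170 to 180 Mb) to 14 of 34 (chromosome 13, 50 to 60 Mb). Over all genes they were 1777 of 19473. The scatter of segment medians shows many of the other segments along 1 axis, with a median far from 0 in 1 line and near 0 in the other, though some had moved in both lines by unequal amounts. DNA copy number was not measured.

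**Figure D5:**
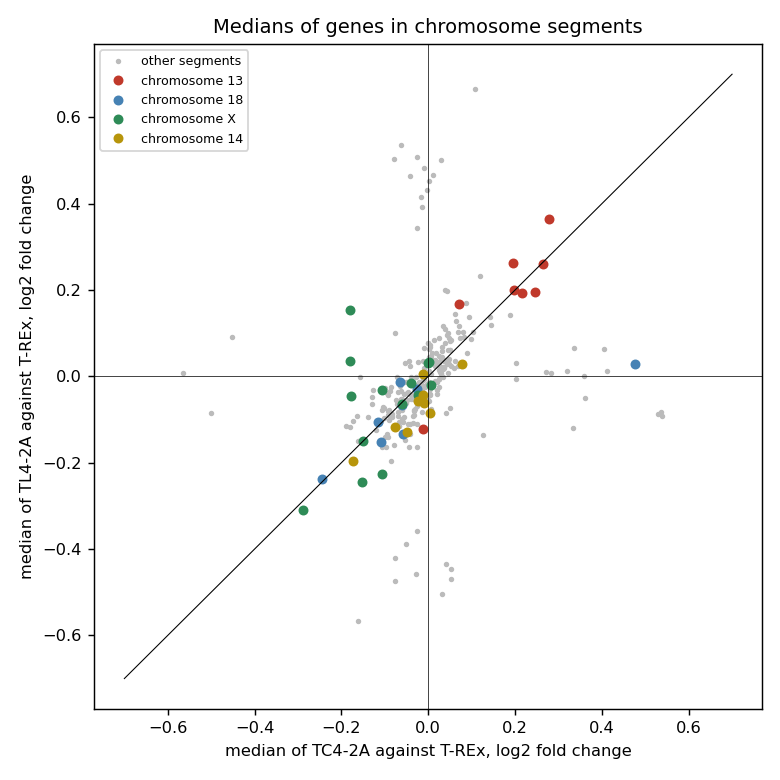
Each point is 1 of 292 chromosome segments of 10 Mb with at least 15 genes tested, with the median log2 fold change of TC4-2A against T-REx cells on the x axis and of TL4-2A against T-REx cells on the y axis. Of the 8 segments of chromosome 13 (red), 6 lie near the diagonal at 0.19 or more in both lines, and many segments far from 0 in 1 line lie near 0 in the other.

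Members also differed from the genes tested in other features. Protein-coding genes were 82.3% of the higher and 89.8% of the lower members, against 70.3% of all genes tested, and pseudogenes were 5.52%, 1.08% and 7.65%. The median span from first to last annotated base was 31.2 kb for higher and 43.4 kb for lower members, against 22.5 kb. Median levels were 5.80, 4.88 and 3.88 log2 CPM. The part of read depth in these differences of class and span was not tested.

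The 173 genes called in the average and in neither line alone comprised 88 higher and 85 lower genes. All 173 stood on the same side of T-REx in both lines. Their median change was 1.15-fold at a median level of 3.49 log2 CPM, below that of the members. Their number rested on the T-REx libraries, with 95, 101 and 105 such genes without T-REx replicate 1, 2 or 3.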

How the data were processed

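RNA-seq counts per gene were deposited for 9 libraries, 3 of each line (T-REx as parent, with TL4-2A and TC4-2A derived from it). The authors made these counts with HISAT2 and featureCounts on GRCh38 and Gencode release 33, and raw counts were used here as deposited. Columns of the authors' own comparisons (base mean, log2 fold changes, standard errors, test statistics, p-values and adjusted p-values) were not used, and 3 damaged lines of the table were left out. All 37 mitochondrial genes were at 0. Total counts ran from 16561680 to 21491977 per library, which limits precision for genes of few counts. Intervals of the fold of near-silent genes, TENM1 among them, cover counting error only. Those of the line difference come from the edgeR fit and include the spread between libraries. Standard errors were derived from the fitted change and its F statistic.

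Genes were filtered with filterByExpr (edgeR 4.0.16, R 4.3.3), scaled by TMM and fitted with the quasi-likelihood method with a term per line. Contrasts of the average of both derived lines, each line, and TC4-2A minus TL4-2A were tested with Benjamini-Hochberg adjustment over the 19473 genes, and the fit was tested on simulated data. No duplicate libraries were found. Levels are CPM. Positions came from Gencode release 44 and upstream sequences from RefSeq (GRCh38.p14). Segments were 10 Mb, with at least 15 genes tested.

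Named were protein-coding members of at least 1 log2 CPM whose derived libraries all lay on 1 side of T-REx (the 12 largest changes each way, and the 8 of highest CPM beyond 1.25-fold each way), the 4 long noncoding RNA genes with the largest change each way, the 3 genes of smallest p in each of 34 lists, SMN1 and SMN2. The members and lists were chosen with earlier results of these data known. Alternatives were RLE scaling, DESeq2 1.42.0, other filters, a replicate block, the 6 derived libraries as 1 group, other ratios, 5 Mb segments and leaving out each library. The result of 1 gene that the rule names is not reported here.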

Additional observations from a re-analysis of the deposited data

Results flagged for a closer look

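For 88 of the genes named by rule and reported here, the direct comparison of TC4-2A with TL4-2A cells passed the threshold (adjusted p under 0.05 from edgeR, with a term per line and the same 9 libraries). The values are log2 differences, TC4-2A minus TL4-2A, and their causes were not tested.

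Members can differ between the lines within the ratio allowed. This was so for LCP1 (-0.34), GNAO1 (-0.27), NALCN (-0.96), HMCN1 (-0.51), COL12A1 (-0.47), SND1 (0.09), PROSER1 (-0.09), CREB3L2 (0.16), RBBP7 (0.1), SMCHD1 (-0.11), TAGLN2 (0.15) and NEFL (-0.12). The difference also passed for BRI3BP (0.11), LINC01687 (0.95), TUBB2B (0.33), ALCAM (0.15), SEMA6A (-0.09), COL21A1 (0.17), GRWD1 (-0.11), MCM5 (-0.11), CKAP2 (-0.11), ETV5 (-0.24), ETV4 (0.45) and HOXC9 (-0.14).

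Other genes were called in the same direction in both lines and by amounts outside the ratio. Among them were KRT19 (1.19), KRT8 (0.41), BASP1 (-0.63), ADGRL2 (-0.1), LRRTM4 (0.43), EPHA2 (0.69), PLXNB2 (0.16), CACNA1D (-0.61), KCNS3 (-0.98) and KCNJ8 (-1.07). The same held for SPARC (1.71), TNC (-0.52), CDH3 (1.31), HMGCS1 (-0.16), INSIG1 (0.37), NDRG1 (0.86), BNIP3L (0.28), GSTP1 (-7.09), NFE2L2 (-0.57) and DDX56 (0.13). Unequal changes were also found for DHX32 (-0.38), HNRNPA3 (-0.4), SRRM2 (-0.2), LUC7L (-0.24), SMN1 (0.81), WDR77 (-0.13), POLR1A (-0.16), NOM1 (0.43), BTG2 (0.31) and PMAIP1 (0.2). The remaining genes of this kind were CDKN1A (0.27), IFITM2 (1.48), PDIA6 (0.35), HSPD1 (-0.4), DNAJB6 (0.38), HHIP (0.41), JAG2 (0.66), TCEAL8 (-0.77), TCEAL9 (-0.68) and VIM (-0.13).

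The change was called in TC4-2A cells alone, with a difference between the lines that passed, for CNTN1 (-1.08), GEMIN5 (0.2), RPS3A (0.65), MCM7 (0.46), MKI67 (-0.66), ERP44 (-1.26), SOX4 (-0.4) and BEX3 (-0.69). In TL4-2A cells alone it was called for TUBA1B (0.23), CACNA1C (-1), ATIC (-0.51), PGD (0.55), RPL37A (-0.54), RPL13 (0.61), CCND2 (-0.48), TRIM71 (4.63) and GFAP (1.46). Opposite directions, both called, were found for PCDH19 (-4.23), PCDH9 (-0.51), PCDH7 (-0.45), COL2A1 (-7.7), SLC7A5 (1.35), AMOT (-3.58) and MBP (0.54).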

How the results depend on the processing

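Of the 7736 calls in the average, 3782 higher and 3954 lower, the direction split stayed close to even under every alternative run. DESeq2 called 3031 higher and 3141 lower genes, with 661 and 712 members, and leaving out each library gave 3121 to 3672 higher and 3241 to 3983 lower genes, 719 to 821 higher and 785 to 913 lower members, 110 to 151 higher and 326 to 372 lower genes beyond 2-fold, and 95 to 224 genes called in neither line alone. Lower genes beyond 2-fold numbered 591 with no expression filter. With at least 10 counts in every library, a filter that removes near-silent genes by construction, 22 higher and 104 lower genes lay beyond 2-fold. With the 6 derived libraries as 1 group, where the spread also holds the difference between the lines, 1391 genes were higher and 1524 lower, 59 and 192 of them beyond 2-fold. There 37 of the 140 named genes lost their call and COL2A1 turned to 0.58 (adjusted p = 0.778 from edgeR). A ratio of at least 0.8 left 508 higher and 555 lower members. Segments of 5 Mb gave 29 lower segments in place of 13. With the replicate number as a block, 3809 genes were higher and 3986 lower, with 874 and 925 members. Same-numbered libraries correlated at -0.029 to 0.03 in their deviations, so the numbers were not taken as pairs. Depth limits the near-silent genes to lower bounds or wide intervals. Over all alternatives, 2051 values of named genes kept their direction and side of the threshold, and 939 counts of gene lists stayed within 1.5 times while 81 did not.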
